A study of Mus musculus with 20 samples.

Results

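Most mouse genes whose symbols begin with Zfp and a number encode zinc finger proteins. In the authors' annotation, 912 of the 25992 m6A peaks measured in 2 thymocyte populations were named for genes with such symbols. These peaks were taken as every peak whose gene symbol starts with Zfp followed by a digit. Left out were Zfp36, Zfp36l1 and Zfp36l2, which encode RNA-binding proteins of a different zinc finger type. Zfp85os and Zfp862-ps match the rule and were counted, whether or not they encode a protein. Thymocytes positive for both CD4 and CD8 (DP cells) gave 611 of these peaks in 215 genes, out of 13450 peaks in all. Invariant natural killer T (iNKT) cells gave 301 in 141 genes, out of 12542. In total 243 Zfp genes had a peak in either cell type and 113 had one in both. The overlap of genes between the cell types was not counted for other genes.

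The study compared C57BL/6 mice of 6 to 8 weeks that carry floxed Mettl3 and a CD4-cre transgene (Mettl3fl/flCD4-cre) with wild-type mice of the same age range. Because Cre is driven by Cd4 regulatory sequence, the deletion is made in developing T cells and not in iNKT cells alone. Each genotype was represented by 2 replicates of sorted DP cells and 3 replicates of sorted thymic iNKT cells, each with an input and an m6A-immunoprecipitated library of RNA fragments of about 150 nt, giving 20 libraries in 8 groups. The protocols describe m6A-seq and a low-input form without saying which cell type had which, so cell type, protocol and number of replicates cannot be told apart in what follows.

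The N6-methyladenosine (m6A) mark is placed on messenger RNA by a complex whose catalytic subunit is Mettl3, most often within a GGAC or related sequence, and it is known to gather in long internal exons, near stop codons and in 3' UTRs. Most Zfp genes of the C2H2 type encode a row of zinc fingers that binds DNA, and in the many that also carry a KRAB domain the whole row is typically encoded by the long last coding exon. KRAB zinc finger proteins are known for silencing retroelements through the corepressor Trim28, and numerous members lie in clusters of recent duplicates, where reads from near-identical copies can be hard to assign.

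Peaks are the rows of the authors' deposited tables, and all enrichments, log2 fold changes and false discovery rates (FDRs) of single peaks below are the authors' own. Coordinates are on mm10. Enrichment is the linear ratio of m6A over input, peak strength is the log10 of the peak's own p-value (more negative is stronger), and a peak passed when the FDR of its difference between genotypes was under 0.05. Which genotype stands on top of the fold change is not recorded. Negative values are read here as probably less methylation in Mettl3-deleted than in wild-type cells, since the authors' deposited gene lists hold all 160 Zfp genes with a negative DP peak and all 117 with a negative iNKT peak, and no Zfp gene without one. From here on lower and higher have this meaning. Mettl3 itself had 0 peaks in each table and its expression was not analysed here, so the deletion was not checked. Markers could be looked for only as peaks. In DP cells 4 of 7 DP markers had a peak, as did 2 of 7 iNKT markers. In iNKT cells 7 of 7 iNKT markers had one, as did 3 of 7 DP markers (Cd8a, Cd8b1 and Rag1), each with a lower peak. Of 10 genes of B cells, myeloid cells and thymic epithelium, 2 had a peak in each cell type. The presence of DP transcripts in the iNKT libraries was not tested as a part of any result.

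Sequence was at hand around the transcription starts that RefSeq lists, and 7 Zfp genes had a peak over at least 30 of the first 50 bases of such a start without being spliced onto an exon upstream of it (peaks of Zfp384 and Zfp800 were, and are left out). The following 4 had a peak over all 50, and they are shown because Zfp148 among them carries the most negative passing value of any Zfp peak. Each line gives 15 bases before the listed start in lower case and the 15 bases from it in capitals, from RefSeq (GRCm38.p6).
Zfp148, chr16:33380760-33380789, plus strand: cgcgccggcagcggcGGCGACCGCGGCGAC
Zfp319, chr8:95331797-95331826, minus strand: ctcccccggccccgcCTACCCGGCCTCGCG
Zfp507, chr7:35802975-35803004, minus strand: cacgtgatctgtctcGGCGCCGCCATCTTG
Zfp579, chr7:4996087-4996116, minus strand: gcctccttctccaccCCCACCCCTCCCACT
The letters GGAC, searched on the transcribed strand, occurred in the first 50 bases of 0 of the 7 genes and in 18.9% of 32851 RefSeq windows of the same length. In iNKT cells the peak at the start of Zfp148 had an enrichment of 78.2 and a log2 value of -6.40 in the authors' deposited table. Those at Zfp319 (-2.22), Zfp507 (-2.55 and -0.92) and Zfp579 (-1.77) were not past the threshold in the authors' deposited table. Zfp579 was the only one of the 4 with such a peak in DP cells, at -0.15 in the authors' deposited table, also not passing.

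Of the peaks named for Zfp genes a larger share was assigned to last exons outside UTRs than of the peaks named for other genes. Last-exon coding peaks are those that the authors' annotation put in the last exon of a transcript and not in a UTR. Whether that exon is coding, or is the last of the gene, was not checked. Such DP peaks of Zfp398 lie 33070 and 31091 nt from the gene's 3' end. In DP cells 234 of 611 Zfp peaks (38.3%) lay there, against 9.99% of the 12839 peaks of other genes. In iNKT cells it was 69 of 301 (22.9%), against 10.2% of 12241. Zfp genes thus supplied 15.4% of all last-exon coding peaks of DP cells but 3.85% of all UTR peaks, and in iNKT cells 5.25% and 2.02%. Internal exons held 11.8% of Zfp peaks in DP cells, against 28.4% of the peaks of other genes, and 3' UTRs held 39.8%, against 45.8%. No value per library exists, so these shares have no replicate error, and peaks of 1 gene are not independent of each other. The names limit them too. Of the 69 iNKT last-exon coding peaks, 49 (71.0%) overlapped the RefSeq span of the named gene and 12 overlapped no Zfp gene. Of the 234 in DP cells it was 200 (85.5%) and 23. Of Zfp UTR peaks, 84.2% in iNKT cells and 88.2% in DP cells overlapped the named gene. This was not counted for other genes.

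**Figure D1:**
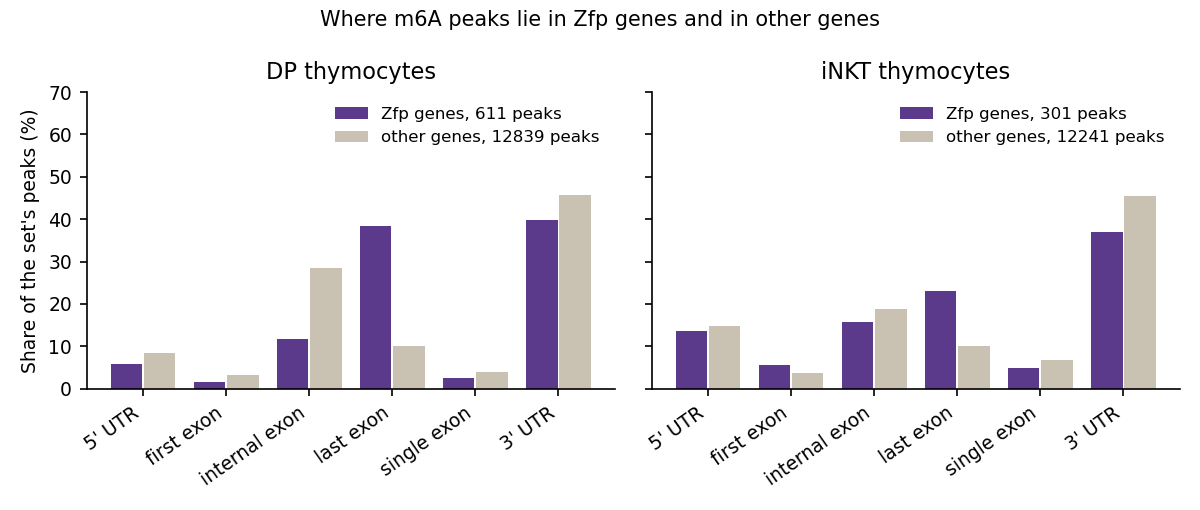
Share of m6A peaks (%) in each position of the transcript for Zfp genes (purple) and other genes (beige), in DP cells (left) and iNKT cells (right). Last exons hold 38.3% and 22.9% of Zfp peaks, against 9.99% and 10.2% of the peaks of other genes.

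In single Zfp genes, rows of peaks lay along 1 exon. Zfp729b on chromosome 13, a member of a cluster of near-identical genes, had 10 DP peaks, 8 of them in the last exon, whose log2 fold changes ran between -1.36 and 1.52 in the authors' deposited table. Its neighbour Zfp729a had 7 DP peaks, 4 in the last exon, and neither gene had an iNKT peak. Zfp26 had 5 last-exon peaks in DP cells. One of them, at chr9:20437564-20438164, had the most negative DP value of any Zfp peak, -2.98 (FDR 0.12) in the authors' deposited table, which does not pass. The same exon held 1 iNKT peak at -0.42 (FDR 0.76) in the authors' deposited table.

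Among Zfp genes grouped by the cell types in which they had a peak, those with a DP peak only had the largest share of last-exon peaks. These 102 genes had 253 DP peaks, 49.4% of them in last exons, whereas the 28 genes with an iNKT peak only had 42 peaks, 4.76% in last exons. In the 113 genes found in both tables the last-exon share was 30.4% of 358 DP peaks and 25.9% of 259 iNKT peaks. Other genes were not grouped in this way, so these counts and shares have no background to be read against. A gene was placed in a group by the names of its peaks. Zfp genes had a mean of 2.84 peaks per gene in DP cells and 2.13 in iNKT cells, against 2.0 and 1.84 for other genes. Chromosome 7, which holds several zinc finger clusters, supplied 168 DP peaks (27.5%) and 96 iNKT peaks (31.9%). It held 7.42% of all DP and 9.42% of all iNKT peaks. Chromosomes 17 and 13 supplied 73 and 71 of the DP Zfp peaks (11.9% and 11.6%) and 14 and 14 of the iNKT ones (4.65% each). Of all peaks they held 4.71% and 4.15% in DP cells, and 5.05% and 3.01% in iNKT cells.

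In DP cells no Zfp peak passed the test between Mettl3-deleted and wild-type cells in either direction. The counts were 0 lower and 0 higher of 611, where the background over all DP peaks is 0.743% lower and 0.483% higher. At an unadjusted p under 0.05 in the authors' test, 14 Zfp peaks were lower (2.29%) and 24 higher (3.93%), where the shares over all DP peaks are 6.50% and 6.18%. The median log2 fold change was -0.08 for the 234 last-exon coding peaks (quartiles -0.67 and 0.44) and 0.04 for the 279 UTR peaks (quartiles -0.47 and 0.59). For the 68 names with peaks in both places, the last-exon median exceeded the UTR median in 40 and was below it in 28, with a median difference of 0.09. Grouping was by name, and for some names, such as Zfp326, not all of these peaks lie in the named gene.

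The DP peaks closest to passing were not of 1 direction. A 3' UTR peak of Zfp655 at chr5:145244279-145245087 had -2.58 (FDR 0.071) in the authors' deposited table. Zfp281, a transcription factor known to restrain pluripotency genes in mouse embryonic stem cells, followed with a 3' UTR peak at 3.53 (FDR 0.087) in the authors' deposited table. A 3' UTR peak of Zfp579 had 1.51 (FDR 0.089) in the authors' deposited table. The best-supported DP peaks sat near 0. Zfp622, whose human and yeast counterparts act in maturation of the large ribosomal subunit, had the strongest, with a log10 peak p of -165 and a log2 value of -0.38 in the authors' deposited table. The strongest last-exon peaks, in Zfp646 and in the imprinting factor Zfp445, were at 0.01 and -0.23 in the authors' deposited table. The iNKT peak that overlaps this Zfp646 peak was labelled internal exon.

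Peak strength differed between Zfp and other genes in DP cells. Zfp peaks had a median enrichment of 8.39 against 4.56 for other genes, but a weaker median log10 peak p of -5.52 against -7.06. The strongest quartile of all DP peaks held 72 Zfp peaks (11.8% of them) and 25.7% of the peaks of other genes. Within it 0 of the 72 passed, against 78 lower and 49 higher of 3299 for other genes. The part of strength in the count of 0 was not tested.

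In iNKT cells 39 Zfp peaks were lower in Mettl3-deleted than in wild-type cells and 13 were higher, in 26 and 13 genes. That is 13.0% lower and 4.32% higher of 301 peaks, where the background over all iNKT peaks is 19.8% lower and 5.84% higher. Other genes had 2449 lower and 720 higher of 12241 (5.88% higher). The median log2 fold change over all Zfp peaks was -0.88, against -0.98 for other genes. By gene, 18.4% of Zfp genes with a peak had a lower one, against 26.2% of all genes with a peak.

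A smaller share of iNKT Zfp peaks passed as lower among last-exon coding peaks than among UTR peaks. No test could be made for this gap. Of 69 last-exon coding peaks 5 were lower and 5 higher (7.25% each), while of 152 UTR peaks 19 were lower and 6 higher (12.5% and 3.95%). The UTR count was made up of 14 lower and 5 higher of 111 in 3' UTRs and 5 lower and 1 higher of 41 in 5' UTRs. Other genes showed a gap between the same positions, with 15.3% of last-exon coding and 20.3% of UTR peaks lower, while 3.86% and 5.98% were higher. Internal exons of Zfp genes had 9 lower and 1 higher of 47 (19.1% and 2.13%) with a median of -1.67. In other genes internal exons had 28.6% lower and 7.24% higher with a median of -1.20.

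**Figure D2:**
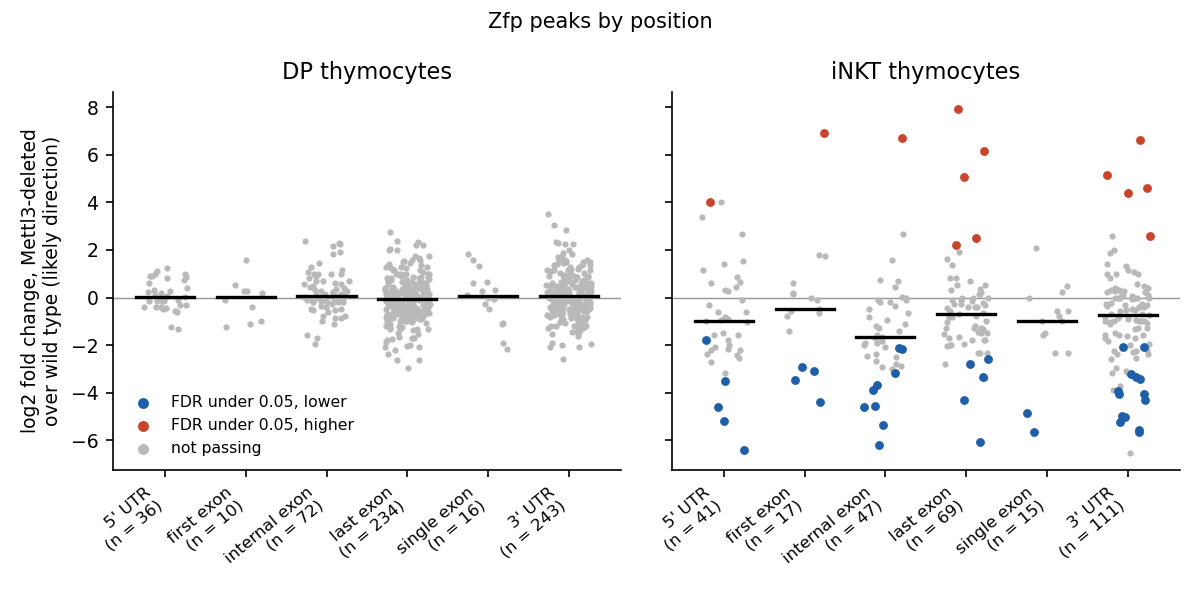
Log2 fold change of every Zfp peak, Mettl3-deleted over wild type in the likely direction, by position (points, bars at the medians), in DP cells (left, 611 peaks) and iNKT cells (right, 300 of 301 peaks, as 1 has no such position). DP medians lie near 0 with no passing peak, and iNKT last exons hold 5 lower (blue) and 5 higher (red) peaks.

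The size of the change gave no stable order between the positions. The median was -0.69 for last-exon coding peaks and -0.83 for UTR peaks of Zfp genes, but with peaks restricted to the gene they are named for it was -0.99 and -0.68, with an enrichment of at least 4 it was -1.03 and -0.98, and with 1 peak per gene and class -1.38 and -1. For the 20 Zfp names with both kinds of peak in iNKT cells, the last-exon median was higher in 13 and lower in 7. The median difference was 0.62 (quartiles -0.52 and 2.39), and over 455 other names it was -0.03. Peaks were grouped here by the name they carry and not by the gene they lie in. For some names, such as Zfp326, whose last-exon peaks lie in Lrrc8d, the contrast is therefore between different genes. The position label is itself not exact. Of 171 overlapping pairs of Zfp peaks across the tables, 151 carried the same label. Another 13 were called UTR in DP cells and last exon in iNKT cells, and 2 the other way round. The rest differed in other ways, such as last exon in DP cells and internal exon in iNKT cells.

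Peaks that passed as lower were the strong ones. Over the 39 lower Zfp peaks the median enrichment was 32.0, the median log10 peak p was -530 and the median log2 fold change was -4.04 (range -6.40 to -1.77). Over the 13 higher peaks the medians were 6.81, -14.0 and 5.08 (range 2.19 to 7.92). In the strongest quartile of iNKT peaks 35 of 56 Zfp peaks (62.5%) were lower, close to the 62.8% of other genes, but this quartile held 18.6% of Zfp peaks and 25.2% of the peaks of other genes. Last-exon coding peaks were weaker than UTR peaks, with a median log10 peak p of -9.03 against -12.2 and a median enrichment of 6.81 against 11. By quartile of strength, from the strongest to the weakest, 3 of 6, 1 of 19, 1 of 13 and 0 of 31 last-exon coding peaks were lower, and 18 of 30, 1 of 33, 0 of 35 and 0 of 54 UTR peaks. The part of strength in the gap between the positions was not tested.

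**Figure D3:**
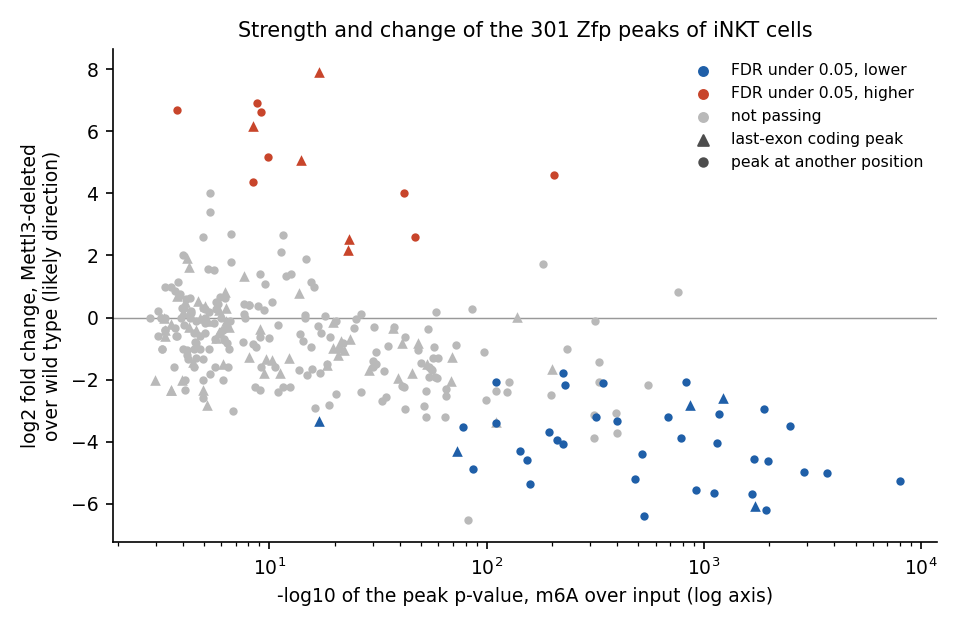
Peak strength (-log10 of the peak p-value, log axis) against log2 fold change, Mettl3-deleted over wild type in the likely direction, for the 301 Zfp peaks of iNKT cells, with last-exon coding peaks as triangles. The 39 lower peaks (blue) lie to the right, with a median log10 peak p of -530, and most of the 13 higher peaks (red) lie to the left, with a median of -14.0.

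Among the lower peaks the largest fold changes stood in genes of several kinds. Zfp148, which binds GC-rich promoters, led with the 5' UTR peak at chr16:33380775-33400461, a spliced interval of 270 nt, at -6.40 (FDR 2.5e-11) in the authors' deposited table. Zfp219, a partner of Sox9 in mouse cartilage, had an internal-exon peak at chr14:52008759-52009088 with an enrichment of 125, a log2 fold change of -6.20 (FDR 2e-10) in the authors' deposited table. A second Zfp219 peak in the 5' UTR, 298 nt away, was at -5.19 (FDR 0.0025) in the authors' deposited table. Both peaks of Zfp219 thus moved the same way. Zfp579 had a single-exon peak at -5.67 and a 3' UTR peak at -5.55, with FDRs of 0.0033 and 0.001 in the authors' deposited table. Zfp513 had an internal-exon peak at -5.35 (FDR 1.1e-06) in the authors' deposited table.

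Among lower peaks within their named gene, those of Zfp622 and Zfp326 had the smallest FDRs. The first-exon peak of the ribosome factor Zfp622 at chr15:25985025-25986965 had the smallest FDR of any Zfp peak, 2e-64, with an enrichment of 14.6 and a log2 value of -2.93 in the authors' deposited table. A 3' UTR peak of Zfp326, whose product belongs in human cells to a complex linking transcription to splicing, lay at chr5:105911491-105915040 with an enrichment of 94.5, a log2 fold change of -5.25 (FDR 4e-37) in the authors' deposited table. Its log10 peak p of -7990 was the strongest of any Zfp peak in the authors' deposited table. The other 4 iNKT peaks named for Zfp326 lie in the neighbouring gene Lrrc8d and ran between -1.70 and 0.70, none passing, in the authors' deposited table.

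Several Zfp genes had more than 1 lower peak. Zfp652, whose human counterpart works with the corepressor CBFA2T3, had a 3' UTR peak at -5.02 with an enrichment of 215 and an internal-exon peak at -4.61, both passing in the authors' deposited table. Zfp64, whose human counterpart activates the MLL promoter, had a lower 3' UTR peak at -4.96 and, 239 nt away, a lower last-exon peak at -4.29 in the authors' deposited table. Zfp703, a transcriptional corepressor, had a lower 3' UTR peak at -3.32 and a lower last-exon peak at -2.60, 386 nt apart, in the authors' deposited table. In these last 2 genes a last-exon peak and a 3' UTR peak were lower, while a second last-exon peak of Zfp64 was at 0 in the authors' deposited table. Zfp646 had 3 lower peaks, at -4.56, -3.67 and -1.77 in the authors' deposited table, and Zfp592, Zfp687 and Zfp830 had 2 each. A 3' UTR peak of Zfp746, the Parkin substrate PARIS, was at -3.41 (FDR 0.0072) in the authors' deposited table.

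The 5 lower last-exon coding peaks were those of Zfp64, Zfp703, Zfp526, Zfp212 and one named for Zfp622. Zfp526 had a log2 fold change of -2.80 with an enrichment of 53.3 (FDR 0.0029) in the authors' deposited table. The peak named for Zfp622, at chr15:25971751-25972019, had -6.07 (FDR 2e-52) in the authors' deposited table, but lies within Retreg1 and not within Zfp622. Zfp212 had -3.32 (FDR 0.039) in the authors' deposited table. The gene just inside the threshold was Zfp777, with an internal-exon peak whose FDR was 0.045 in the authors' deposited table, and the peak just outside it, at 0.058, was named for Zfp513 and lies in Ppm1g.

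The 5 higher last-exon coding peaks belonged to Zfp777, Zfp770, Zfp212, Zfp281 and Zfp574. Zfp777 had the largest increase of any Zfp peak, 7.92 with an FDR of 7.9e-36, at chr6:48025145-48025354, on an enrichment of 3.34 in the authors' deposited table. Zfp770 followed at 6.17 with an FDR of 0.00048 and Zfp212 at 5.08 (FDR 1e-11) in the authors' deposited table. Zfp281 had 2.52 (FDR 0.0012) in the authors' deposited table. Zfp574 had 2.19 with an FDR of 0.0045, while another of its last-exon peaks was at -3.37 (FDR 0.06) in the authors' deposited table. These 5 peaks had enrichments of 3.34 to 8.31, where the median of last-exon coding Zfp peaks in iNKT cells was 6.81. By quartile of strength, from the strongest to the weakest, they numbered 0, 2, 3 and 0.

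Higher peaks outside last exons included 1 strong peak. Zfp467, known in mice for steering stromal cells towards fat rather than bone, had a 3' UTR peak at chr6:48438295-48438775 with an enrichment of 349, a log2 fold change of 4.59 (FDR 1.2e-05) in the authors' deposited table. That enrichment was exceeded among iNKT Zfp peaks only by a 3' UTR peak of Zfp811, at 449, with a log2 fold change of 0.84 (FDR 0.65) in the authors' deposited table. Zfp810 had a first-exon peak at 6.91 and Zfp638 an internal-exon peak of 61 nt at 6.70, with enrichments of 15.7 and 2.65 in the authors' deposited table. Zfp346, which binds double-stranded RNA, had a 3' UTR peak at 5.16 (FDR 0.0019) in the authors' deposited table. The 3' UTR peak named for Zfp963, at 6.61 in the authors' deposited table, lies in Zfp866.

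For 3 names, passing peaks went both ways. Zfp777 had the higher last-exon peak at 7.92 and, 418 nt from it, a lower 3' UTR peak at -4.04 with an enrichment of 122 in the authors' deposited table. Its internal-exon peak was lower too, at -2.17 in the authors' deposited table. Within the last exon of Zfp212, 355 nt separated a lower peak at -3.32 from a higher one at 5.08 in the authors' deposited table. A further peak named for Zfp212, at -5.66 with an enrichment of 234 in the authors' deposited table, lies in the adjacent gene Zfp282. For Zfp768, a lower peak at -3.21 and a higher one at 2.6, 179 nt apart in the authors' deposited table, both lie in Itgal, which encodes the LFA-1 integrin chain and is the gene next to it. So 2 of these names, Zfp777 and Zfp212, have opposite changes within their own transcript.

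**Figure D4:**
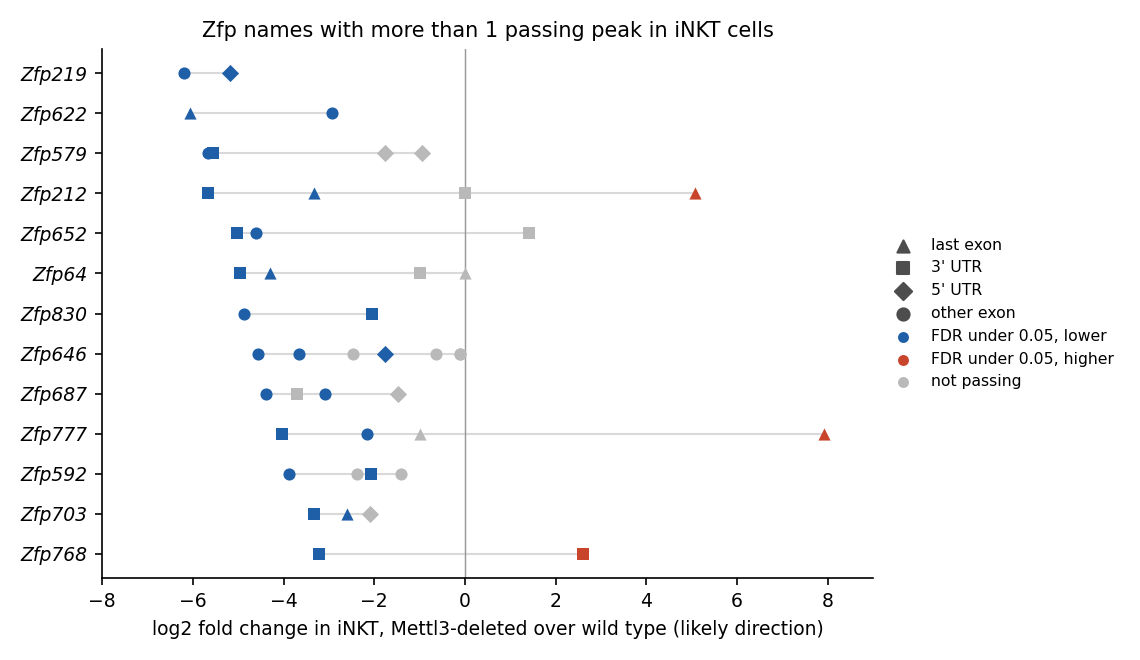
Log2 fold change in iNKT cells, Mettl3-deleted over wild type in the likely direction, of every peak named for the Zfp genes with more than 1 passing peak, with the position as the symbol. Zfp777, Zfp212 and Zfp768 hold lower (blue) and higher (red) peaks, and the passing peaks of the other names are all lower.

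A peak's name was not always the gene it lies in. Against RefSeq spans 534 of 611 DP and 247 of 301 iNKT Zfp peaks overlapped the gene they are named for, and 54 and 40 overlapped no Zfp gene. Of peaks within the named gene and not on its opposite strand, iNKT cells had 34 lower and 11 higher of 235. Zfp784 had the most peaks of any name, 12 in DP and 10 in iNKT cells, of which 5 and 6 lie in the neighbouring Zfp865. Its lower iNKT peak, at -2.10 in the authors' deposited table, is one of those. Its most negative iNKT value, -6.52, did not pass (FDR 0.13) in the authors' deposited table and lies in no RefSeq gene.

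The same stretches of RNA were compared between the cell types by peaks that share at least 1 exonic base on the same strand. Such peaks numbered 154 of the DP Zfp peaks (25.2%) and 164 of the iNKT ones (54.5%). Of last-exon coding peaks, 40 of 234 in DP cells (17.1%) and 52 of 69 in iNKT cells (75.4%) had a partner. Partners were not counted for other genes, so these shares have no background to be read against. The matched iNKT peaks included 36 of the 39 lower and 5 of the 13 higher ones. Among those 5, the peak of Zfp638 shares only 1 base with its DP partner. No DP Zfp peak passed, so no pair could pass in both cell types. Over all matched Zfp peaks the median log2 fold change was -1.265 in iNKT cells and 0.084 in DP cells. At the iNKT sites that were lower it was -3.91 in iNKT cells and 0.16 in DP cells. At those that were higher it was 4.38 in iNKT cells and 0.40 in DP cells. The lower and higher sites were picked by their iNKT values. The size of their iNKT medians follows from that choice, and their DP medians cannot be read against it. The difference between cell types was not tested, since no value per library exists.

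Single sites, most of them picked in the same way by their iNKT values, are given as examples. At the internal exon of Zfp219 the log2 fold change was -6.20 in iNKT cells with an enrichment of 125, and 0.11 in DP cells with an enrichment of 3.06, in the authors' deposited tables. At the 3' UTR site of Zfp326 it was -5.25 in iNKT cells and 0.05 in DP cells in the authors' deposited tables. At the 3' UTR site of Zfp652 it was -5.02 in iNKT cells and 1.39 in DP cells in the authors' deposited tables. Zfp703 was the one of the lower sites below -1 in DP cells, where its 3' UTR had -1.54 with an FDR of 0.13, against -3.32 in iNKT cells, in the authors' deposited tables. The DP peak of Zfp281 at 3.53 overlapped 2 iNKT peaks of opposite sign, 1 passing at 2.52 and 1 not passing at -1.43, in the authors' deposited tables.

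**Figure D5:**
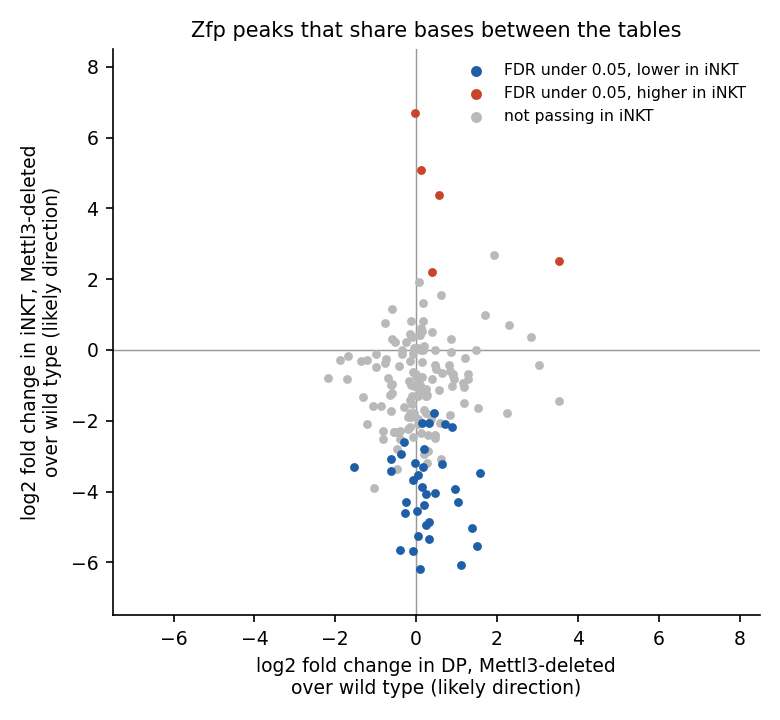
Log2 fold change in DP cells (x axis) and iNKT cells (y axis), Mettl3-deleted over wild type in the likely direction, for the 171 pairs of Zfp peaks that share exonic bases. Sites lower in iNKT cells (blue) spread down to -6.20 on the y axis around a median of 0.16 on the x axis.

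Over all genes with an iNKT peak, 26.2% had a lower and 9.64% a higher one (the gene lists that follow hold few genes with a peak, and no list is set apart from these shares here). Of 9 Zfp genes known to silence retroelements or guard imprints, 4 had a DP peak and 2 an iNKT peak, too few to read the absence of a passing peak. Zfp445, which protects imprinting marks, had last-exon DP peaks at -0.23 and -0.30 in the authors' deposited table and no iNKT peak. Zfp809, which recognises murine leukaemia proviruses, had 3' UTR peaks at -0.56 and -0.62 in DP cells and 1 at -1.72 in iNKT cells (FDR 0.64) in the authors' deposited tables. Zfp932 had last-exon and 3' UTR peaks at -0.09 and 0.32 in DP cells and a 3' UTR peak at 0.32 in iNKT cells in the authors' deposited tables. Of 14 genes of the corepressor machinery that KRAB zinc fingers recruit, 5 had an iNKT peak and 3 of these a lower one (Atf7ip, Chd4 and Hdac1), or 60% against 26.2% of all genes, with up to -5.77 in Chd4, a subunit of the NuRD remodelling complex, in the authors' deposited table. Dnmt1, the maintenance DNA methyltransferase, had a higher peak at 1.28 (FDR 1.1e-06) in the authors' deposited table. In DP cells 10 of the 14 had a peak and 1 passed, that of Atf7ip at -0.66 (FDR 0.011) in the authors' deposited table. Over all genes with a DP peak, 1.44% had a lower and 0.876% a higher one.

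Among 8 Zfp genes with known roles in lymphocytes, 6 had an iNKT peak, with 1 gene lower (Zfp148) and 1 higher (Zfp281), or 16.7% each against 26.2% and 9.64% of all genes. Zfp318, which in B cells allows IgD to be made, had last-exon peaks at -1.65, -0.69 and -0.83 in iNKT cells, none passing, in the authors' deposited table. Zfp609 had internal-exon peaks between 0.04 and 0.70 in iNKT cells and 6 peaks between -0.41 and 1.58 in DP cells, none passing, in the authors' deposited tables. Zfp608, its paralogue, which represses the Rag genes in mouse thymocytes, had a single iNKT peak at -1 (FDR 0.76) in the authors' deposited table. Zfp91, a ubiquitin ligase, had a 5' UTR iNKT peak at -0.63 (FDR 0.39) in the authors' deposited table. The values of this group lie on both sides of 0.

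Of 7 Zfp genes that act on RNA or in translation, 6 had an iNKT peak, with 2 lower (Zfp326 and Zfp622) and 1 higher (Zfp638), or 33.3% and 16.7% against 26.2% and 9.64% of all genes. Zfp598, the ubiquitin ligase that senses collided ribosomes, had a last-exon DP peak at -0.18 and a 3' UTR iNKT peak at 0.50, neither passing, in the authors' deposited tables. Zfp106, an RNA-binding protein of motor neurons and muscle, had 7 DP peaks between -0.54 and 0.08 and 2 iNKT peaks at -1.30 and -1.19, none passing, in the authors' deposited tables.

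Of 17 Zfp genes that work in chromatin or transcription complexes, 13 had an iNKT peak and 5 a lower one (Zfp217, Zfp219, Zfp592, Zfp687 and Zfp703), with 0 higher. That is 38.5% of the 13, against 18.4% of Zfp genes and 26.2% of all genes. Zfp217, which binds Mettl3 in mouse embryonic stem cells, had a lower internal-exon peak at chr2:170114817-170115296 with -3.19 (FDR 0.017) in the authors' deposited table. Zfp592 and Zfp687, whose human counterparts form a complex with ZMYND8, had lower peaks at -3.88 and -2.07 and at -4.38 and -3.09 in the authors' deposited table. In DP cells 11 of the 17 had a peak and 0 passed, where 1.44% of all genes had a lower peak and 0.876% a higher one.

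Other zinc finger families gave shares of genes with a lower iNKT peak on either side of that of the Zfp genes. Of Zbtb genes 7 of 28 had one, of Klf genes 3 of 9, of Zkscan genes 1 of 5 and of Zscan genes 1 of 7. Of Zfp genes 26 of 141 had one, and of all genes with an iNKT peak 26.2%. In DP cells none of these families had a passing lower peak at this threshold, where 1.44% of all genes with a DP peak had one.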

How the data were processed

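For each cell type the authors deposited a list of genes and a peak table that sets Mettl3-deleted against wild-type libraries. Per the file headers, a row of a deposited table holds the peak's p-value, its fold enrichment (a linear ratio, m6A over input) and the log2 fold change that sets the genotypes apart. It further holds, per the file headers, the log10 of p-values and of false discovery rates (FDRs), treated here as scores, and the authors' annotation of gene and position. The submitters' processing notes list the mm10 build with STAR 2.6.0a and RSEM 1.3.0, HOMER 4.9.1, FastQC 0.11.5 and Trim Galore 0.6.5. The deposited tables are named for exomePeak and have its column headings. Its version and settings are not known here. How replicates entered the calls is not stated.

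The tables hold no values per library. Depth is therefore unknown, no interval or spread between replicates can be given, and every p-value and FDR is the authors' own. It is not stated that replicates came from separate animals, nor whether the test kept them apart. Those p-values may therefore measure technical spread only, or no spread between replicates.

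Python 3.11.15 with pandas 2.3.3 was used. Repeats of a row (identical position, strand and blocks) were dropped, 5 from the DP and 24 from the iNKT table, 0 of them Zfp peaks. A peak passed at a differential FDR under 0.05. Deposited starts count from 0 and are printed 1 higher: after that shift 10 DP and 71 iNKT peak starts fell exactly on a RefSeq gene start, against 1 and 6 without it. RefSeq (GRCm38.p6) held 242 of the 243 Zfp symbols. Members, lists and alternatives were chosen with earlier results of these data known. Named peaks are the 12 most negative and 8 most positive passing iNKT peaks, the 6 with the smallest FDR, genes with passing peaks of both signs, members with the most peaks or highest enrichment, and members of the role lists. Others named were chosen after their values were seen. The counting was checked on simulated data. Alternatives changed the FDR, the fold, repeated rows, the gene a peak lies in, the enrichment, peaks per gene, position and membership.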

Additional observations from a re-analysis of the deposited data

How the results depend on the processing

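The 10 counts, shares and medians by which Zfp peaks are summarised were recomputed under 8 alternatives, giving 80 values. Of these, 45 equalled the value reported, several by construction (a median cannot move with the FDR, 0 Zfp rows were repeated, and all 52 passing peaks exceeded 2-fold), so they say nothing on stability. A count moved when it changed by over 1.5 times, and a share or median when it left a 95% interval that treats peaks as independent, which is a loose bound; 2 values moved. With 1 peak per gene and position class, that with the smallest peak p-value, the higher iNKT Zfp peaks numbered 7 in place of 13. The same setting gave a median log2 fold change of -1.38 in place of -0.69 for iNKT last-exon coding peaks. By construction it keeps each gene's strongest peak. The share of iNKT peaks passing as lower was smaller for last-exon coding than for UTR peaks under each of the 8 alternatives, while the order of their medians turned under 3 of them, as given in the report. No paired analysis was possible because the deposited tables hold no values per library, and for the same reason no replicate could be left out. The DP counts of 0 could change only where Zfp36, Zfp36l1 and Zfp36l2 were added, and were 0 there too. The share of iNKT last-exon coding peaks that were lower lay between 4.35% and 11.6%, and that of UTR peaks between 9.21% and 18%. The depth of the libraries is unknown, so what it limits cannot be stated.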

Other observations

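Some values of the Zfp peaks fall outside the comparisons above. Among the log2 fold changes in the authors' deposited iNKT table, 31 of the 301 Zfp values (10.3%) were exact whole numbers, against 985 of 12241 (8.05%) for other genes, and 26 of those 31 were in the weakest quartile of peaks. In the authors' deposited DP table, 28 of 611 Zfp values (4.58%) were whole, against 297 of 12839 (2.31%) for other genes. Over the same bases, peaks named for Zfp genes were called on both strands 25 times in the DP table and 12 times in the iNKT table. The 3 peaks at Zfp784 in DP cells with an identical enrichment of 10.8 and log2 value of -1.46 in the authors' deposited table, listed over shared bases and on both strands, are of this kind. Counts of peaks per gene therefore hold some stretches of transcript more than once.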
